A study of Mus musculus with 7 samples.

Results

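The genes described here encode the NF-kB transcription factor subunits and proteins that regulate NF-kB, most of which hold it in check: Nfkb1, Nfkb2, Rel, Rela, Relb, Nfkbia, Nfkbib, Nfkbie, Nfkbiz and Tnfaip3. They were chosen by symbol, and all 10 had a row in each of the 7 count matrices, among 27998 genes in the 5 CD45+ libraries and 31053 genes in the 2 pools (27514 genes are common to all). NF-kB is a family of dimers that rest in the cytoplasm bound to IkB proteins. Signals from Toll-like, interleukin-1 and tumour necrosis factor receptors activate IkB kinases, IkB is degraded, and the freed dimers switch on cytokine, chemokine and survival genes. Among these targets are the genes of IkB alpha (Nfkbia) and of A20 (Tnfaip3), which end the response, so that Nfkbia and Tnfaip3 transcripts are widely read as traces of recent NF-kB activity in neutrophils and macrophages.

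Leukocytes of the mouse heart were measured by droplet single-cell RNA sequencing, which counts transcripts as unique molecular identifiers (UMIs). The CD45+ libraries came from male C57BL6/J mice in steady state or 1, 3, 5 or 7 days after permanent ligation of the left anterior descending coronary artery, with 5, 5, 5, 5 and 3 mice pooled. After a step that reduced neutrophils, the sort kept CD45+ cells free of a CD45.2 antibody given into the vein. A CD11b+ pool of infarcted hearts from the same strain and sex carried hashtag antibodies for day 1 (5 mice), day 3 (5 mice) and day 5 (3 mice), together with antibodies against surface proteins. The hearts of these libraries were digested with collagenases and hyaluronidase for 1 hour at 37 °C. A second pool held CD11b+ cells of blood and heart without Ter119, B220 or NK1.1, from C57BL6/J mice 8 to 10 weeks old. Its mice had no surgery (3 mice), sham surgery 1 or 3 days earlier (3 mice each) or infarction 1 or 3 days earlier (5 mice each). These hearts were dissociated mechanically, Ly6G+ and Ly6G- cells were brought to about equal numbers, and the 7 hashtags could not be matched here to conditions, so they are given by number and enter no test.

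Cells used numbered 522 to 1793 per CD45+ library, 4282 in the CD11b+ pool and 9999 in the blood and heart pool. UMIs were summed over the neutrophils or the monocytes/macrophages of each library or hashtag, the classes being clusters named from marker genes. These sums held 106922 UMIs (41 neutrophils of CD45+ day 5) to 37419001 UMIs (1161 monocytes/macrophages of CD11b+ pool day 5), and they are given as counts per 1000000 UMIs of the sum (CPM). Steady state and day 7 had too few neutrophils (7 and 28) for a sum. Ly6g, a neutrophil surface marker, was at 10.6 to 60.0 CPM in the heart neutrophil sums and at 0 to 0.43 CPM in the heart monocyte/macrophage sums. The neutrophil marker list summed to 19313 CPM in the monocytes/macrophages of CD45+ day 1 and to 195 to 2459 CPM in the other heart sums of that class. In neutrophils the monocyte/macrophage marker list summed to 3769 to 9680 CPM in the heart sums and to 920 to 1648 CPM in the blood and heart pool. The part of these markers of the other class in the results was not tested. Mice were pooled before sequencing, so p values measure the spread between experiments or hashtags and not between mice. The 2 pools shared 28 cell barcodes, and other pairs of libraries shared 0 to 2.

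Sequence before the RefSeq starts is shown first, to show where the kappa-B motif, the site NF-kB binds, is spelled out, in 3 windows with a match and 1 without. RefSeq windows of 250 bases before a transcription start (build GRCm38.p6) were at hand for 7 of the 10 genes. The kappa-B consensus was searched on both strands, and overlapping matches were kept. Of 32851 mouse windows, 3.90% hold it. Among the genes described, 7 of 10 windows and 5 of 7 genes hold it. A match is a run of letters and no measured site. Capitals mark the consensus matches in the 4 windows below, each read 5′ to 3′ on the gene's minus or plus strand.

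Nfkbia, chr12:55492648-55492897, minus strand: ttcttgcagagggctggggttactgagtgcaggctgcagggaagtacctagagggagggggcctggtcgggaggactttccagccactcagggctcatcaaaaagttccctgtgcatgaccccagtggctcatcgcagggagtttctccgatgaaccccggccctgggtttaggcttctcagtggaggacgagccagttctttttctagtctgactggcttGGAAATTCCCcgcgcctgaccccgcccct

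Tnfaip3, chr10:19015411-19015660, minus strand: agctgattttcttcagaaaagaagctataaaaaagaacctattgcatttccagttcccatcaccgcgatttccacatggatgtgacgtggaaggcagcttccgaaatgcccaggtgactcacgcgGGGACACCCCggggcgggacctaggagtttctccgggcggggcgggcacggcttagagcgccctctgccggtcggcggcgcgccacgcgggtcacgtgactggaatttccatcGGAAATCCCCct

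Nfkbie, chr17:45555450-45555699, plus strand: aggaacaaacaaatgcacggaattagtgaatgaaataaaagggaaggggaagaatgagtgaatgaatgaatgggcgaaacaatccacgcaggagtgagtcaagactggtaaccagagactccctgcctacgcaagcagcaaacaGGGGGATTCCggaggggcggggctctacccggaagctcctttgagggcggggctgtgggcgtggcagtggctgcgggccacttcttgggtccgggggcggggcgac

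Rela, chr19:5637291-5637540, plus strand: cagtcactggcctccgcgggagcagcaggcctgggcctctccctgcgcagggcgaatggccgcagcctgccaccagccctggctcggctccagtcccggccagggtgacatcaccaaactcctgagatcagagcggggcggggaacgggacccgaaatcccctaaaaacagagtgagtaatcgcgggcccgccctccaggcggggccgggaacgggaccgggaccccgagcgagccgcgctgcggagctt

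The Nfkbia match begins 29 bases upstream of the start, those of Tnfaip3 125 and 12 bases upstream, and that of Nfkbie 106 bases upstream. The window at a second start of Tnfaip3, and the Nfkbib window, hold none. Rel holds an overlapping pair 92 and 91 bases upstream, and each of the 3 Nfkb2 windows holds at least 1 match. In the levels given below, Nfkbia, Tnfaip3, Nfkbie and Rel, which have matches, stood apart from the blood and heart pool in both classes. Rela, which has none, overlapped with that pool in both. Nfkbib has no match and stood apart in both classes, while Nfkb2 has matches and overlapped in monocytes/macrophages but not in neutrophils. A link between matches and levels was not tested. Except for Nfkbia, the RefSeq starts differ from the ends of the GENCODE spans that follow. Most of the printed Tnfaip3 window lies within that gene's GENCODE span, and the Rela window runs past its GENCODE start. The Nfkbib window and all 3 Nfkb2 windows lie wholly within the GENCODE spans of their genes. All 10 genes are annotated as protein coding in GENCODE M21 on GRCm38. Nfkbia (ENSMUSG00000021025) spans chr12:55489410-55492647, Tnfaip3 (ENSMUSG00000019850) chr10:19000910-19015657, Nfkbie (ENSMUSG00000023947) chr17:45555703-45563169, Nfkbiz (ENSMUSG00000035356) chr16:55811375-55838899 and Nfkb1 (ENSMUSG00000028163) chr3:135584655-135691547. Rela (ENSMUSG00000024927) spans chr19:5637483-5648130, Rel (ENSMUSG00000020275) chr11:23736847-23770970, Relb (ENSMUSG00000002983) chr7:19606217-19629438, Nfkb2 (ENSMUSG00000025225) chr19:46304320-46312385 and Nfkbib (ENSMUSG00000030595) chr7:28758251-28767512. Nfkb1 overlaps Gm43430 on its own strand, and the strand rule of the authors' counting is not given in the sources used here, so reads could be shared there and with the antisense neighbours of Nfkb2 and Nfkbib.

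The first question was how high the 10 genes stood in neutrophils and in monocytes/macrophages. In digested hearts Nfkbia, Nfkbiz and Tnfaip3 were higher in neutrophils than in the monocytes/macrophages of the same library in 6 of 6 pairs. The subunits Nfkb2, Rel and Relb did the same with smaller median ratios, and Nfkb1, Rela, Nfkbib and Nfkbie did so in 5 of 6. Because the classes are clusters of the same transcripts, these pairs are a description with no test.

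Among the subunits, Nfkb1 encodes p105, the precursor of p50. In neutrophils it was at 224, 121 and 253 CPM on days 1, 3 and 5 of the CD45+ libraries and at 510.5, 547 and 584 CPM in the CD11b+ pool. In monocytes/macrophages it was at 202, 125 and 108 CPM and at 352, 230.2 and 217 CPM. Neutrophils were higher in every pair but CD45+ day 3, with ratios of 0.965 to 2.70. Rel encodes c-Rel, a subunit that carries an activation domain. Neutrophils had 130.4, 137 and 206 CPM in the CD45+ libraries and 266, 374 and 377 CPM in the pool, against 100.3, 106 and 114 CPM and 190.0, 182 and 179.7 CPM in monocytes/macrophages. The neutrophil sum of Rel was the higher one in each pair (ratios 1.29 to 2.10). Rela encodes p65, the main activating subunit of the classical pathway. It ranged from 42.7 to 133 CPM in heart neutrophils and from 44.8 to 83.0 CPM in heart monocytes/macrophages, so the classes overlapped. Nfkb2 and Relb, which form the dimer of the alternative pathway, ranged from 99.7 to 140.3 CPM and from 65.5 to 119.8 CPM in heart neutrophils. In monocytes/macrophages they ranged from 46.3 to 77.2 CPM and from 42.1 to 57.4 CPM, with no overlap between the classes for either gene.

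Of the classical inhibitors, Nfkbia was the one that separated the classes most. Neutrophils had 3006, 6444 and 8427 CPM on days 1, 3 and 5 of the CD45+ libraries and 6293, 10199.7 and 6977 CPM in the pool. Monocytes/macrophages had 2224, 1886 and 1854 CPM and 1941, 1452 and 1318 CPM on the same days. All 6 neutrophil sums lay above all heart monocyte/macrophage sums, and the ratio within a pair ran from 1.35 on CD45+ day 1 to 7.03 on pool day 3. Nfkbie, the gene of IkB epsilon, was at 77.3, 142 and 262 CPM and at 316, 352 and 414 CPM in neutrophils, against 111, 114 and 75.0 CPM and 164, 129 and 108 CPM. Only on CD45+ day 1 was it lower in neutrophils. Nfkbib, the gene of IkB beta, overlapped between the classes, with 66.2 to 282 CPM in neutrophils and 69.2 to 189 CPM in heart monocytes/macrophages.

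Nfkbiz encodes IkB zeta, a nuclear IkB protein that helps switch on secondary response genes such as Il6. Its neutrophil levels were 402, 682 and 645 CPM in the CD45+ libraries and 1838, 2489 and 1707 CPM in the pool. Monocytes/macrophages had 227, 153 and 234 CPM and 396, 298 and 311 CPM, so each neutrophil sum was 1.77 to 8.35 times its partner. Tnfaip3 encodes A20, a ubiquitin-editing enzyme that shuts off signalling upstream of the IkB kinases. Neutrophils had 267, 412 and 571 CPM and 874, 1839 and 1055 CPM, against 193, 99.2 and 133 CPM and 249, 221 and 231 CPM in monocytes/macrophages. The ratio within a pair ran from 1.38 to 8.32, again lowest on CD45+ day 1 and highest on pool day 3. The precision of the smallest sum, 41 neutrophils of CD45+ day 5, was 7885 to 8995 CPM for Nfkbia (exact Poisson 95% interval, counting error only) and 15.2 to 109 CPM for Rela, which rested on 5 UMIs.

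Steady state and day 7 had 1 library each and were not tested. At steady state, Nfkbiz in monocytes/macrophages was at 675 CPM (95% interval 649 to 701), Tnfaip3 at 287 (270.1 to 304), Rel at 195 (181 to 209) and Rela at 83.0 (74.2 to 92.5). Each was the highest CD45+ value of that gene in the class, as were the steady-state values of Relb (57.4) and Nfkbib (189). Nfkbia was at 1691 CPM (1651 to 1733) at steady state, its lowest CD45+ value in the class, and at 2266 (2230 to 2302) on day 7, next to 2224 on day 1. The 18 genes known to be induced by enzymatic digestion, such as Fos and Hspa1a, summed to 32454 CPM at steady state and to 8155 to 10702 CPM on the other CD45+ days in this class. Their part in the steady-state levels was not tested.

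**Figure D1:**
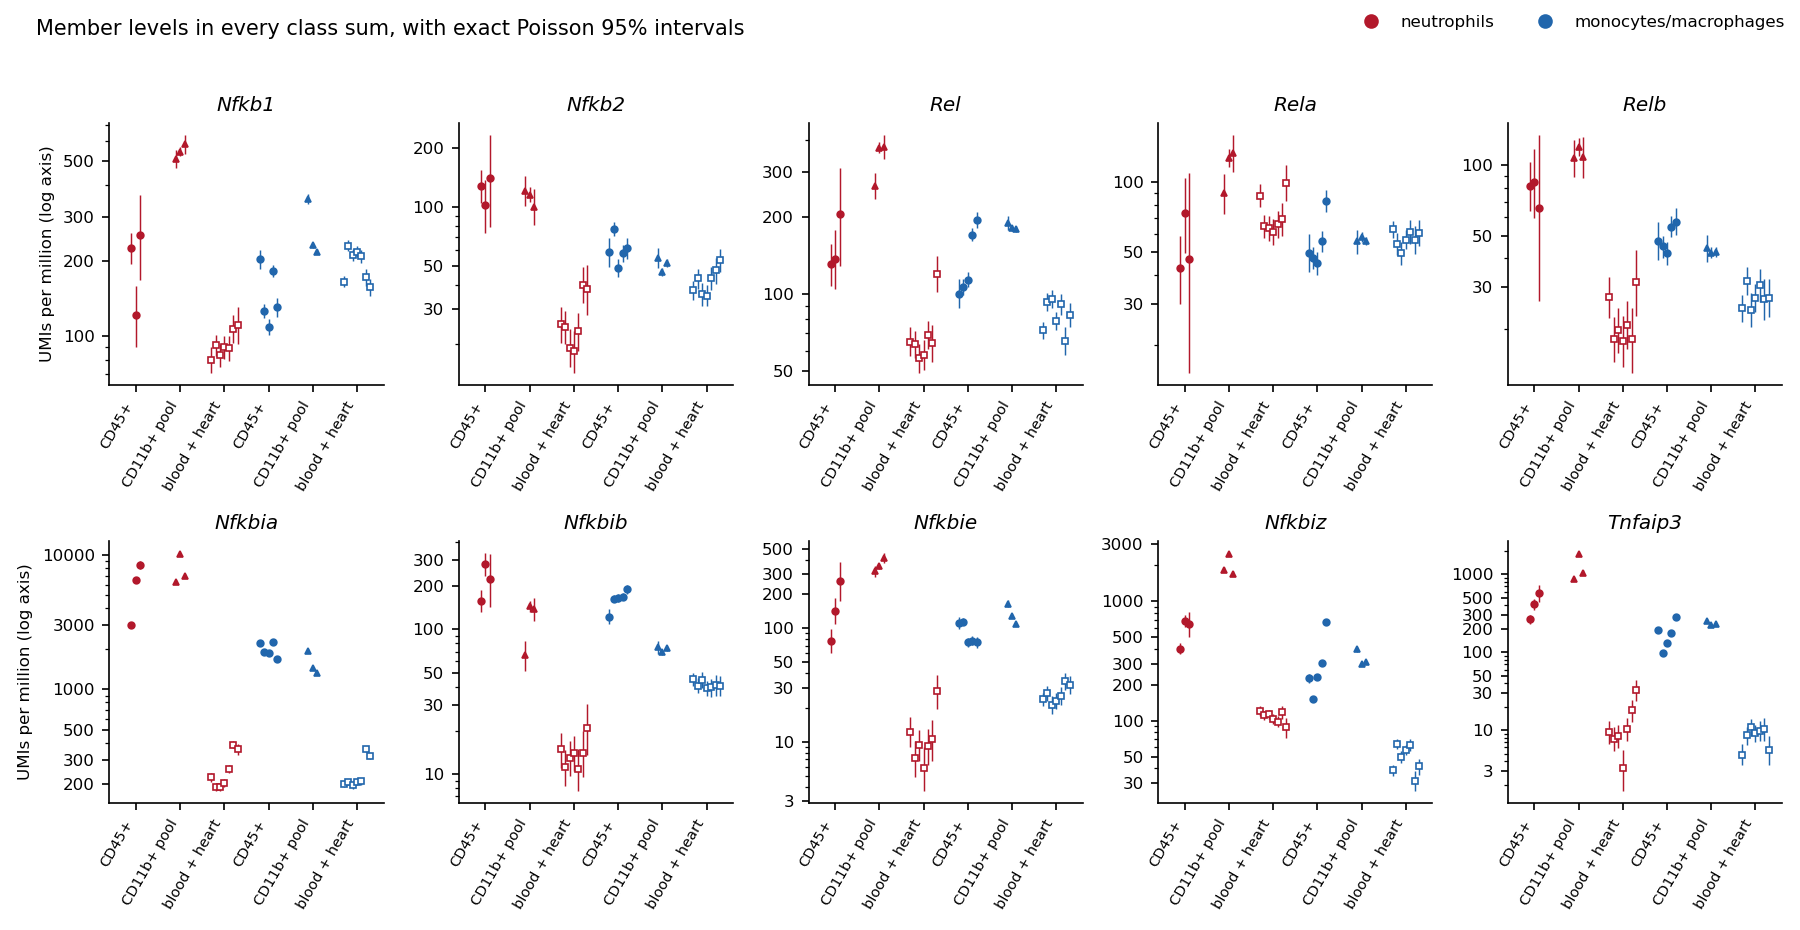
Level of each gene (CPM, log axis) with exact Poisson 95% intervals, 1 point per sum, in neutrophils (red) and monocytes/macrophages (blue), the points of a column running by day (steady state last) or by hashtag number. For Nfkbia, Nfkbie, Nfkbiz and Tnfaip3 all heart points lie above the hashtag points in both classes, while those of Rela overlap.

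The blood and heart pool, made without enzymes, gave far lower levels of the IkB genes and of Tnfaip3. For Nfkbia, neutrophils of hashtags 1 to 7 had 222, 190.1, 189.6, 202, 255, 389.9 and 358 CPM and monocytes/macrophages had 199, 206, 194, 206, 208, 363 and 319.7 CPM. Hashtags 6 and 7 were the highest in both classes, and all 14 values lay below every digested heart sum of their class. Tnfaip3 was at 9.50, 7.80, 8.46, 3.22, 10.3, 18.0 and 32.6 CPM in neutrophils and at 4.87, 8.59, 11.04, 9.16, 9.86, 10.3 and 5.63 CPM in monocytes/macrophages. These Tnfaip3 levels rest on 12 to 68 UMIs a sum. Nfkbie was at 12.3, 7.13, 9.40, 5.91, 9.11, 10.5 and 27.8 CPM in neutrophils and at 23.7, 26.8, 21.2, 22.9, 25.4, 34.2 and 31.8 CPM in monocytes/macrophages, the reverse of the order in most heart pairs. Nfkbiz was at 121, 111, 113, 104, 98.8, 118 and 88.2 CPM in neutrophils and at 38.6, 64.5, 49.8, 57.4, 63.1, 31.5 and 41.6 CPM in monocytes/macrophages.

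In neutrophils, 9 of the 10 genes had all 6 heart sums above all 7 hashtag sums, the exception being Rela. Among the 2876 genes with a median of at least 50 CPM in the heart sums or in the hashtag sums, 8.28% did so and 27.6% lay entirely below. In monocytes/macrophages 7 of 10 genes had all 8 heart sums above the hashtags, the exceptions being Nfkb1, Nfkb2 and Rela, against 7.33% above and 30.4% below among 3302 genes. Relb is among the 7, although its medians of 44.5 CPM in the hearts and 27.1 CPM in the hashtags lie below that level. The ratio of the medians of heart sums to hashtags was 76.1 for Tnfaip3, 30.8 for Nfkbie, 30.2 for Nfkbia, 10.8 for Nfkbib and 10.8 for Nfkbiz in neutrophils. In monocytes/macrophages the same ratios were 22.6, 4.32, 9.07, 3.49 and 6.08. The subunits stood apart less, with neutrophil ratios of 4.88 for Relb, 4.85 for Nfkb2, 4.25 for Nfkb1, 3.68 for Rel and 1.24 for Rela. Monocyte/macrophage ratios of the subunits ran from 0.923 for Nfkb1 to 2.12 for Rel. Over the same 2876 and 3302 genes the median log2 ratio was -0.26 in neutrophils and -0.32 in monocytes/macrophages, against 2.86 and 1.44 over the 10 genes. The hashtags mix blood with heart and control with infarcted mice, and tissue, dissociation and experiment cannot be told apart in this comparison, so it has no test. The digestion list summed to 5878 to 7829 CPM in hashtag neutrophils and 6621 to 20119 CPM in heart neutrophils. In monocytes/macrophages it summed to 3269 to 5936 CPM in the hashtags and 8155 to 32454 CPM in the hearts, with no overlap. Its part in the difference was not tested.

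Within the hashtags the order of the classes differed by gene. Nfkb1 ranged from 79.9 to 110.5 CPM in neutrophils and from 156 to 229 CPM in monocytes/macrophages, with no overlap. Nfkb1, Nfkb2, Nfkbib and Nfkbie were higher in neutrophils in 0 of 7 hashtags, Rel in 1, Relb in 2, Nfkbia and Tnfaip3 in 4, and Rela and Nfkbiz in 7.

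A test of the class difference that does not rest on clustering was had from the Ly6G surface antibody of the CD11b+ pool. Cells were split by the log count of Ly6G antibody less the cell's mean log count over all surface antibodies (centred log ratio). This gave Ly6G-high (266, 1057 and 266 cells on days 1, 3 and 5) and Ly6G-low cells (222, 1052 and 1319 cells). Their UMIs were summed by day, the 3 days serving as replicates. The Ly6G-high cells were 89.4% neutrophils and 10.1% monocytes/macrophages by cluster, and the Ly6G-low cells 0.386% and 83.8%. By day, neutrophils were 251 of 266, 959 of 1057 and 210 of 266 Ly6G-high cells. Monocytes/macrophages hold more UMIs per cell, and they supplied 24.6%, 36.3% and 52.97% of the UMIs of the Ly6G-high sums on days 1, 3 and 5, against 75.3%, 63.1% and 39.0% from neutrophils. The part of this mixture in the differences was not tested. All 10 genes were higher in Ly6G-high cells (edgeR quasi-likelihood test with the day as block, Benjamini-Hochberg adjusted p under 0.05), where 43.1% of 10196 genes passed the test, 21.3% higher and 21.7% lower. The TMM-scaled log2 difference was positive on 3 of 3 days for each gene, and DESeq2 called the same number. Nfkbiz, Tnfaip3 and Nfkbia differed most.

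Nfkbia was at 5396, 7749.6 and 4223 CPM in Ly6G-high cells and at 1776, 1276 and 1299.5 CPM in Ly6G-low cells. The groups did not overlap, and the fitted difference was 2.26 log2 (SE 0.27, edgeR adjusted p 0.000284). Nfkbiz was at 1542, 1843 and 1125 CPM against 355, 262 and 295 CPM, a difference of 2.59 log2 (SE 0.26, edgeR adjusted p 0.000111). Tnfaip3 was at 741, 1361 and 714 CPM against 229, 188 and 216 CPM, or 2.39 log2 (SE 0.28, edgeR adjusted p 0.000242). For both genes the lowest Ly6G-high value was above 3 times the highest Ly6G-low value, and day 3 was the highest of the Ly6G-high sums. Nfkbie was at 293, 307 and 309.6 CPM against 162, 127 and 114 CPM, or 1.48 log2 (SE 0.17, edgeR adjusted p 0.000261), with nearly equal Ly6G-high values on the 3 days. Nfkbib was at 75.2, 126 and 116 CPM against 76.8, 71.3 and 80.3 CPM, so on day 1 its plain CPM was no higher in Ly6G-high cells. Its fitted difference was 0.74 log2 (SE 0.19, edgeR adjusted p 0.0121).

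Among subunits, Nfkb1 was at 478, 484 and 519 CPM in Ly6G-high and 351, 233 and 235 CPM in Ly6G-low cells, a fitted difference of 1.18 log2 (SE 0.18, edgeR adjusted p 0.00113). Rel was at 257, 340.1 and 333 CPM against 215, 204 and 205 CPM, or 0.86 log2 (SE 0.18, edgeR adjusted p 0.00515). Neither gene's groups overlapped in CPM. Rela differed by 1.02 log2 (SE 0.19, edgeR adjusted p 0.00271), from 82.6, 103 and 96.1 CPM against 54.5, 58.1 and 56.8 CPM. Relb differed by 1.29 log2 (SE 0.22, edgeR adjusted p 0.00195) and Nfkb2 by 1.24 log2 (SE 0.20, edgeR adjusted p 0.00161). The 10 genes had a median of 1.26 log2 where all genes had -0.10. Scaling by total counts alone put the all-gene median at -0.37, the split of calls went from 2176 higher and 2216 lower to 1366 higher and 2621 lower, and the 10 genes had a median of 0.98. Rel (0.57, edgeR adjusted p 0.0571) and Nfkbib (0.46, edgeR adjusted p 0.152) then did not pass, which left 8. Without day 3, Rel (0.80), Rela (0.99) and Nfkbib (0.57) did not pass (edgeR adjusted p 0.117, 0.0537 and 0.219), which left 7.

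**Figure D2:**
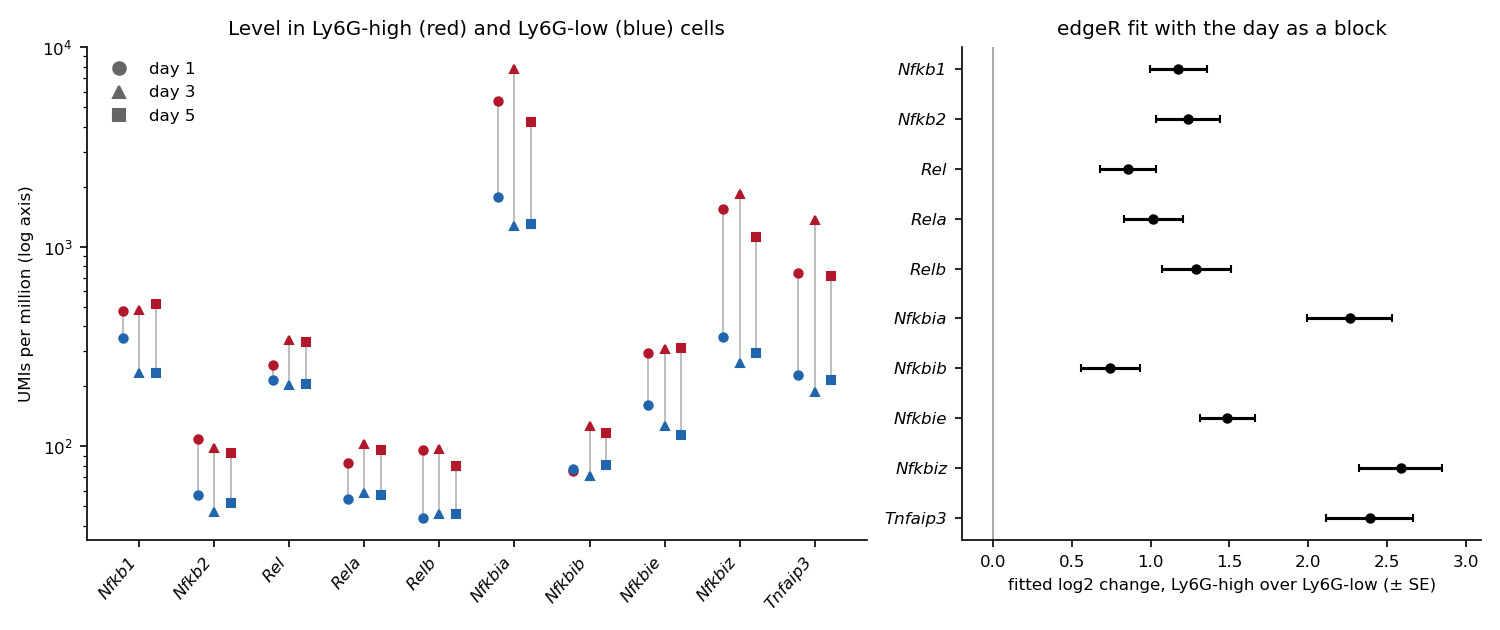
Left, CPM (log axis) of each gene in Ly6G-high (red) and Ly6G-low (blue) cells of the CD11b+ pool, with a line joining the sums of a day, and right, the fitted log2 difference with 1 SE on each side. The Ly6G-high sums lie above the Ly6G-low sums of the same day for every gene except Nfkbib on day 1 (75.2 against 76.8 CPM).

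The rest of the pathway was read from lists of 67 genes. In Ly6G-high cells, 9 of 15 tested receptors and adaptors were higher and 0 lower, among them Tlr2, Tlr4, Cd14, Myd88 and Il1rap, the shared chain of the interleukin-1 receptor (3.62 log2, edgeR adjusted p 9e-06). Of 10 kinases 4 were higher, including Map3k8 and Map3k14. Of 13 other inhibitors and atypical IkB genes 9 were higher and Tnip3 was lower. Of 27 known target genes 22 were higher and 3 (Il6, Cxcl1 and Cd83) lower, and the largest differences were for the chemokine Ccl3 (3.79 log2, edgeR adjusted p 3.97e-05), the cytokine Tnf (3.52, 7.4e-05) and the adhesion molecule Icam1 (3.37, 6.33e-05). The digestion list moved too, with 9 of 18 genes higher and 1 lower, and summed to 13710 to 18018 CPM in Ly6G-high against 9781 to 10146 CPM in Ly6G-low cells. Its part in the differences was not tested.

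Whether the genes changed between days 1, 3 and 5 was asked within each class over 6 sums, 3 of the CD45+ libraries and 3 of the CD11b+ pool, with the experiment as block. The CD45+ libraries were made with chemistry version 2 and the pool with version 3, so chemistry and experiment cannot be told apart. In monocytes/macrophages 3 of the 10 genes fell from day 1 to day 5: Nfkb1, Nfkbia and Nfkbie. In that contrast 12.1% of 10670 genes passed the edgeR test (571 higher and 721 lower, the latter 6.76% of all tested), and the 10 genes had a median of -0.42 log2 against -0.02 for all genes. DESeq2 called 3 as well. The levels behind these changes are given above, and for all 3 genes day 5 was below day 1 in both experiments.

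Nfkb1 fell by 1.06 log2 (SE 0.17, edgeR adjusted p 0.0190), with -1.23 in the CD45+ libraries and -0.90 in the pool. Nfkbia decreased by 0.67 log2 (SE 0.14, edgeR adjusted p 0.0360), with -0.59 and -0.76. Nfkbie dropped by 0.85 log2 (SE 0.18, edgeR adjusted p 0.0362), with -0.90 and -0.80. The other 7 did not pass, and all had negative estimates. They were -0.60 for Tnfaip3 (edgeR adjusted p 0.138), -0.42 for Nfkb2 (0.284), -0.41 for Nfkbiz (0.172), -0.37 for Relb (0.195), -0.33 for Rela (0.244), -0.22 for Rel (0.372) and -0.07 for Nfkbib (0.822). The count was 0 without CD45+ day 5 and 4 without CD11b+ pool day 1, and it was 1 (Nfkb1) without CD45+ day 3, pool day 3 or pool day 5. A lone sum is assumed in such fits to vary like the other days. With no experiment block it was 0 and with total counts alone 1, a scaling that puts the median of all genes at 0.23 log2. The neutrophil marker list in these sums went from 19313 to 488 CPM in the CD45+ libraries and from 2459 to 726 CPM in the pool between the same days, and its part in the changes was not tested.

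The monocyte/macrophage class was held by different clusters on different days. On CD45+ day 1, 98% of its cells lay in a cluster led by Saa3, Cxcl3 and Arg1, and on day 5, 68% lay in one led by Ms4a7, Spp1 and Gpnmb. In the CD11b+ pool, cluster 0 held 92% of the class on day 1 and cluster 1 held 66% on day 5. Levels within a cluster are given as a description with no test. In pool cluster 0 (195, 471 and 205 cells on days 1, 3 and 5) Nfkb1 was at 367, 344 and 430 CPM, Nfkbia at 2016, 2199 and 2373 CPM and Nfkbie at 169, 211 and 255 CPM, so none of the 3 genes was lower on day 5 than on day 1. Pool cluster 1, which had lower levels of all 3 genes, went from 461 cells on day 3 to 767 on day 5, with 173 and 205 CPM of Nfkb1, 1132 and 1333 CPM of Nfkbia and 84.8 and 93.4 CPM of Nfkbie. In the CD45+ libraries the main cluster of day 1 had no counterpart of size on later days, and the main cluster of day 5 held 197 cells on day 3 and 517 on day 5. There Nfkb1 was at 85.9 and 94.5 CPM, Nfkbia at 1483 and 1669.9 CPM and Nfkbie at 77.3 and 47.9 CPM. In the sums, fewer cells of a kind and less RNA per cell cannot be told apart.

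From day 1 to day 3, 0 of the 10 genes passed the edgeR test in monocytes/macrophages, where 0.853% of genes did. All 10 estimates were negative (-0.88 to -0.09, median -0.35 against -0.01 for all genes), 4 had an unadjusted p under 0.05, and DESeq2 called 3. Nfkb1 had -0.88 (SE 0.17, edgeR adjusted p 0.0781), Tnfaip3 -0.80 (SE 0.23, 0.170), Nfkbiz -0.71 (SE 0.18, 0.134) and Nfkbia -0.56 (SE 0.14, 0.135). Without CD11b+ pool day 1 these 4 genes passed, and without CD45+ day 1 Nfkb1 alone did. From day 3 to day 5, 0 of 10 passed against 0.0469% of all genes, with 1 at an unadjusted p under 0.05 and 0 by DESeq2. Nfkbie had -0.46 log2 (SE 0.18, edgeR adjusted p 0.595) and passed only without CD11b+ pool day 1.

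**Figure D3:**
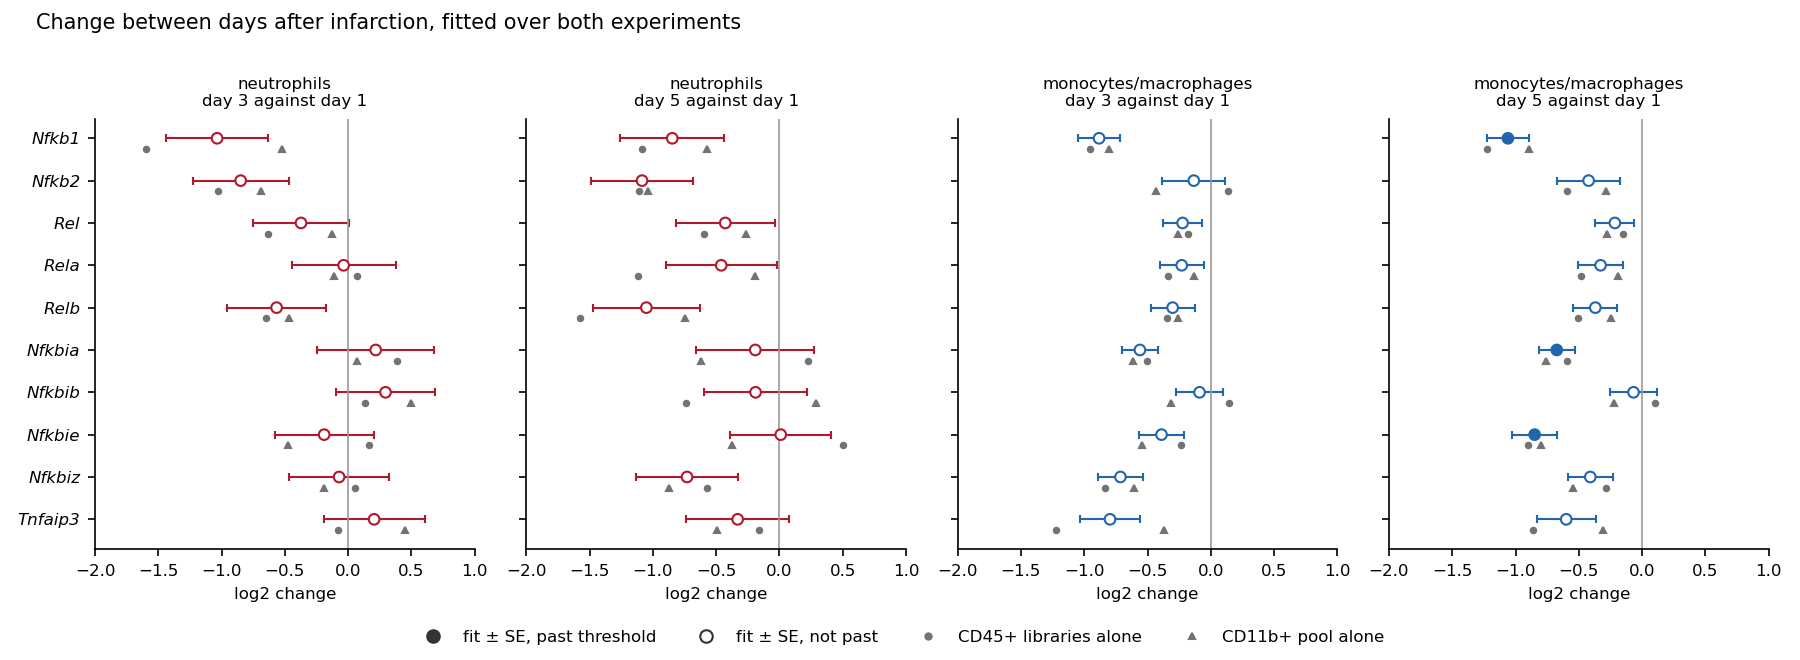
Log2 change of each gene on days 3 and 5 against day 1 in neutrophils (red) and monocytes/macrophages (blue), with bars of 1 SE on each side, filled points where the edgeR adjusted p was under 0.05, and grey points for each experiment alone. The filled points are Nfkb1, Nfkbia and Nfkbie on day 5 in monocytes/macrophages, at -1.06, -0.67 and -0.85.

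In neutrophils none of the 10 genes passed between any of the 3 days, by edgeR or by DESeq2. From day 1 to day 3, 2.04% of 6184 genes passed, and 2 of the 10 genes had an unadjusted p under 0.05. From day 1 to day 5, 6.78% passed and again 2 of the 10 had such a p. From day 3 to day 5, 0% of genes passed (126 had an unadjusted p under 0.05, and DESeq2 called 1) and none of the 10 had a p under 0.05.

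The higher neutrophil CPM of later days given above, such as 8427 against 3006 CPM of Nfkbia in the CD45+ libraries, have to be set against a shift of all genes. On the total-count scale the all-gene median rose by 0.68 log2 on day 3 and by 0.90 log2 on day 5, where TMM scaling put it at 0.01 and -0.03. The calls over all genes went from 26 higher and 100 lower to 445 higher and 59 lower for day 3, and from 104 higher and 315 lower to 1167 higher and 94 lower for day 5. The 10 leading genes of each sum held 38.4%, 25.3% and 21.1% of the neutrophil UMIs on days 1, 3 and 5 of the CD45+ libraries and 26.5%, 19.7% and 18.3% in the pool. Relative to all genes, Nfkbia had 0.22 log2 on day 3 (SE 0.46, edgeR adjusted p 0.846) and -0.19 on day 5 (SE 0.47, 0.835), the 2 experiments giving 0.23 and -0.62 for day 5. Tnfaip3 had 0.20 (SE 0.40, edgeR adjusted p 0.830) and -0.33 (SE 0.41, 0.663), and Nfkbiz -0.07 (SE 0.40, 0.951) and -0.73 (SE 0.40, 0.296).

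The lowest neutrophil estimates belonged to subunits. Nfkb1 had -1.04 log2 on day 3 (SE 0.40, edgeR adjusted p 0.198), with -1.60 in the CD45+ libraries and -0.53 in the pool, and -0.85 on day 5 (SE 0.41, 0.228). Nfkb2 had -0.85 (SE 0.38, edgeR adjusted p 0.260) and -1.09 (SE 0.40, 0.111), the latter from -1.11 and -1.04. Relb had -0.57 (SE 0.39, edgeR adjusted p 0.479) and -1.05 (SE 0.42, 0.141). Without CD11b+ pool day 1, Nfkb1 passed on day 3 and Nfkb1 and Nfkb2 passed on day 5. The 10 genes had medians of -0.13 and -0.44 log2 on days 3 and 5 against day 1, with total counts alone 0.53 and 0.53. The neutrophil class also changed clusters: 99% of CD45+ day 1 neutrophils lay in a cluster led by Ngp, Retnlg and Lcn2, and 99% to 100% of days 3 and 5 in one led by G0s2 and Il1r2.

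Whether the day effect differed between the classes was tested as an interaction over the 12 sums. None of the 10 genes passed from day 1 to 3, day 1 to 5 or day 3 to 5, where 0.0197%, 0.847% and 0% of 10156 genes did, and DESeq2 called none of the 10 either. Unadjusted p values under 0.05 were had by 1, 0 and 1 of them. Tnfaip3 differed by 1.10 log2 from day 1 to day 3 (neutrophils minus monocytes/macrophages, SE 0.43, edgeR adjusted p 0.358) and Nfkbiz by -1.14 from day 3 to day 5 (SE 0.37, edgeR adjusted p 1.00).

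The other genes of the pathway were counted in the same fits. In monocytes/macrophages from day 1 to day 5, 19 of 65 tested pathway genes fell and 3 rose, in a contrast where 12.1% of all genes passed and 6.76% were lower. With total counts alone, a count added after the data were seen, 13 fell and 4 rose, and the calls over all genes turned from 571 higher and 721 lower to 731 higher and 372 lower. Among receptors and adaptors 4 fell (Tlr4, Cd14, Irak3 and Il1rap), and so did the kinase gene Ikbke. Of 27 known targets 14 fell, led by the cytokines Il6 (-5.14 log2, edgeR adjusted p 0.00636) and Il1a (-3.32, 0.00641), the mitochondrial superoxide dismutase Sod2 (-2.62, 0.0335) and the chemokine Ccl3 (-2.35, 0.0414). The 3 that rose were Cd40, Cd83 and Vcam1. None of the 13 other inhibitors and atypical IkB genes passed. From day 1 to day 3, 7 targets fell and none rose, led by Il6 (-3.48, edgeR adjusted p 0.0465), Il1a (-2.57, 0.0434), Bcl2a1d (-1.64, 0.0434) and Cxcl2 (-1.53, 0.0434). In that contrast 0.853% of all genes passed, 23 higher and 68 lower. With total counts alone 0 of the 65 pathway genes passed, and over all genes 0 were higher and 4 lower. In the sums from day 3 to day 5, 0 of 65 passed, the largest estimates among genes with a mean of at least 50 CPM being -1.65 for Il6, 1.10 for Cd83, -0.87 for Ptgs2 and -0.84 for Il1b.

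In neutrophils 14 of 60 tested pathway genes fell from day 1 to day 5 and none rose, where 6.78% of all 6184 genes passed and 315 were lower. With total counts alone, which turned the calls over all genes from mostly lower to mostly higher (given above), 3 fell and 5 rose. The 14 were 5 receptor or adaptor genes, the atypical IkB gene Bcl3 and 8 targets, and among those with a mean of at least 50 CPM the largest changes were those of the chemokine Ccl4 (-2.60 log2, edgeR adjusted p 0.0129), Tlr4 (-2.47, 0.0130), Il1rap (-2.43, 0.00681) and Irak3 (-2.11, 0.0236). From day 1 to day 3 Ccl4 alone passed (-2.50, edgeR adjusted p 0.0250), and Tlr4 (-1.90), Irak3 (-1.54) and Sod2 (-1.54), next in size at that mean, did not. There 2.04% of all genes passed, and with total counts alone 2 pathway genes rose and 1 fell. From day 3 to day 5 none passed, the largest estimates at that mean being -1.97 for Cxcl1, -1.11 for Ier3, -0.98 for Il1rap and -0.81 for Il1rn. None of the pathway genes passed the interaction test of a difference in day effect between the classes. With total counts alone 5 of 65 did from day 1 to day 5, all with a positive difference (neutrophils minus monocytes/macrophages). On that scaling 718 of all 10156 genes passed with a positive difference and 28 with a negative one, so the 5 are not read as particular to the pathway. The digestion list had 1 gene lower (Egr1) from day 1 to day 5 in neutrophils, and 1 higher (Atf3) and 2 lower (Hspa1a and Hsp90aa1) in monocytes/macrophages.

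Within a class the 10 genes were uneven across clusters, which is given as a description because the clusters were built from the same transcripts. The CD11b+ pool held 2 neutrophil clusters. Cluster 2 (999 cells, led by Tnf, Icam1, Ccrl2 and Ccl3) had 10546 CPM of Nfkbia, 2554 of Nfkbiz and 1910 of Tnfaip3, and cluster 3 (471 cells, led by Retnlg and S100a9) had 5866, 1636 and 809 CPM. Cluster 2 held 16%, 81% and 69% of the neutrophils of days 1, 3 and 5. Among monocytes/macrophages of the pool, cluster 0 (871 cells) had 2194 CPM of Nfkbia, 435 of Nfkbiz and 266 of Tnfaip3, and cluster 1 (1239 cells) had 1250, 296 and 241. Cluster 4 (278 cells, led by Fabp4 and Ctsk) had 416, 86.1 and 54.0 CPM, the lowest of the 3. In the steady-state heart, a cluster of 111 cells led by Cbr2, Mgl2, Folr2 and C1qa had 294 CPM of Nfkbia, 114 of Nfkbiz, 20.3 of Tnfaip3 and 30.4 of Rel. The other large cluster there (405 cells, led by Hspa1a, Atf3, Cd83 and Jun) had 1877, 773, 332 and 219 CPM. The digestion list summed to 11626 CPM in the first and 35963.5 CPM in the second of these clusters.

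**Figure D4:**
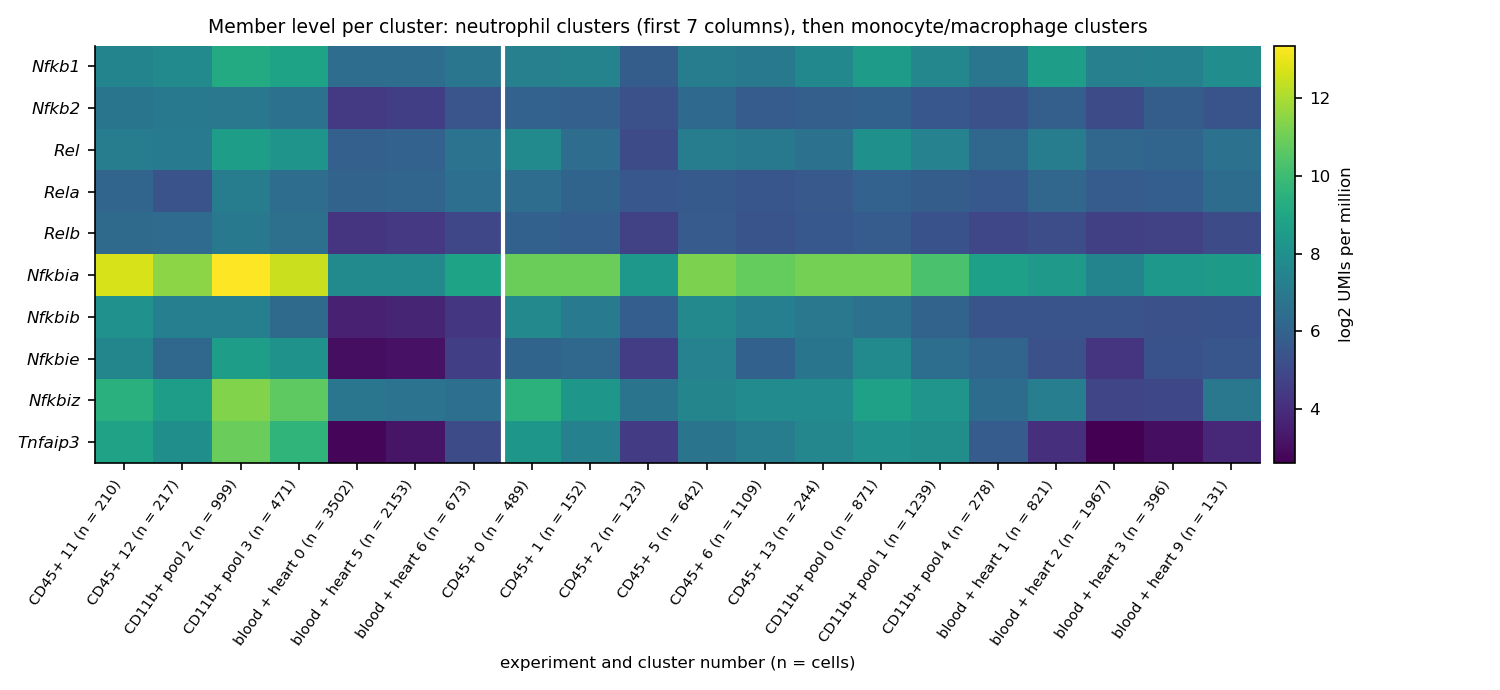
Heat map of the log2 level (CPM) of each gene in each neutrophil cluster (left of the white line) and monocyte/macrophage cluster, with the number of cells in brackets. The Nfkbia row is brightest in CD11b+ pool cluster 2 (10546 CPM) and darker in all clusters of the blood and heart pool. It is also dark in some heart clusters, such as CD45+ cluster 2 (321 CPM).

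Finally, the genes whose log2 CPM followed that of Nfkbia, Nfkbiz, Tnfaip3 and Nfkb1 most closely over the 12 heart sums were sought among 2439 genes. The sums share libraries, experiments and class, so Pearson's r is a description. Nfkbia was followed most closely by Maff (r 0.992), Birc3 (0.983) and Gabpb1 (0.983). Nfkbiz was followed by Kdm6b (0.987), Tnfaip3 (0.985) and Ccnl1 (0.984), and Tnfaip3 by Nfkbiz (0.985), Kdm6b (0.983) and Stk17b (0.978). Nfkb1 was followed by Zc3h7a (0.982), Ccnt1 (0.971) and Slc20a1 (0.969).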

How the data were processed

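Single-cell RNA counts of heart and blood leukocytes were read as the UMI counts deposited for every gene and cell, which the authors had not normalized. Per the file headers Cell Ranger 3.0.2 made both pools. Its version for the CD45+ libraries is not given in the sources used here. The build is mm10/GRCm38 per the submitters' processing notes, and the annotation release and cell caller are not given in the sources used here. The 10 genes and all gene lists were chosen with earlier results of these data known.

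Cells needed 200 genes or more and no more than 10% mitochondrial UMIs, a ceiling that 17.4% of CD11b+ pool barcodes exceeded. Hashtags were called by a Gaussian mixture at a posterior of 0.5, barcodes with several hashtags were left out (311 and 1430), and scrublet removed 18 of the CD45+ cells, which with under 0.5% of cells marked cannot be taken to have found all doublets. Clustering used scanpy 1.11.5 (2000 variable genes, 30 components, 15 neighbours, Leiden resolution 0.5), and clusters were named from fixed marker lists. An unnamed CD11b+ pool cluster of 424 cells was left out of the classes. The Ly6G antibody split used a Gaussian mixture of the centred log ratio at a posterior of 0.9.

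UMIs were summed over at least 30 cells of a class per library or hashtag, totals and depths being in the report. The tests were two-sided quasi-likelihood tests of edgeR 4.0.16 (R 4.3.3, limma 3.58.1) with day and experiment as terms, after filterByExpr and TMM scaling. Benjamini-Hochberg adjustment ran over every gene of a contrast, and the threshold was 0.05. The pairing of sums within an experiment comes from the libraries themselves, and TMM factors ran from 0.536 to 1.46 in neutrophils. Changes within an experiment used 0.5 added counts. On simulated sums for day 3 against day 1 with 200 genes changed by 2 log2, 79% were recovered in neutrophils (5888 genes, 3.66% of calls false) and 83% in monocytes/macrophages (10675 genes, 6.74% false). DESeq2 1.42.0, other scalings, filters, class rules and fits without 1 sum were alternatives.

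All 10 genes are named, and of the 4 pathway lists the 4 genes with the largest fitted change in a class and contrast with a mean of at least 50 CPM are given values. Further genes are named only where counted as passing. Intervals are exact Poisson 95% intervals and cover counting error only. Steady state, day 7 and the unmatched hashtags entered no test.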

Additional observations from a re-analysis of the deposited data

Results flagged for a closer look

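In 3 of 20 groups of 7 hashtags (10 genes in 2 classes) of the blood and heart pool, 1 hashtag lay far from the others by Dixon's criterion, which chance alone meets in about 1 group of 20. All 3 were neutrophils of hashtag 7, so the groups are not independent, and the share of all genes that meets the criterion is not given here. That sum stood apart in make-up as well. Its neutrophil marker list summed to 104487 CPM, against 204288 to 261467 CPM under the other hashtags. Its 10 leading genes held 20.6% of the UMIs, against 29.3% to 35.1%. The part of this in the 3 values was not tested. Rel was at 120.0 CPM there and at 55.9 to 69.2 CPM under the other hashtags. Nfkbib was at 20.7 CPM against 10.8 to 14.8 CPM, and Nfkbie at 27.8 CPM against 5.91 to 12.3 CPM. The condition of hashtag 7 is not known here.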

How the results depend on the processing

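Over all alternatives, 1770 of 1930 values of the 10 genes kept their direction and their side of the threshold, 27 no longer passed, 14 newly passed and 119 changed sign, none of the 119 past the threshold in either fit. In monocytes/macrophages, the genes called from day 1 to day 3 went from 0 to 3 with DESeq2 and 1 with no filter on low counts. From day 1 to day 5 they went from 3 to 1 with total counts alone, with classes from each cell's own markers and with only the compared days fitted, and to 0 with 0.05 added in naming clusters, which leaves 3 more clusters of the CD11b+ pool unnamed, 4 in all. With no replicate block, which ignores the pairing of sums by experiment, the count was also 0. The cause of these changes was not tested.

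Without 1 sum, the counts ranged in neutrophils from 0 to 1 (day 3 against day 1), 0 to 2 (day 5 against day 1) and 0 to 0 (day 5 against day 3), and in monocytes/macrophages from 0 to 4, 0 to 4 and 0 to 1. The differences between classes ranged from 0 to 0, and the Ly6G comparison from 7 to 10. Signs changed, never past the threshold, for 31 of 100 values with total counts alone and for 20 of 90 with 0.05 added in naming. With total counts alone, negative estimates in neutrophils went from 7 to 2 genes on day 3 and from 9 to 2 on day 5. In monocytes/macrophages they went from 10 to 7 on day 3 and from 10 to 8 on day 5. Among the signs that changed in neutrophils were Relb (0.11) and Nfkbiz (0.59) on day 3. On day 5 they included Nfkb1 (0.17), Nfkbia (0.85), Nfkbiz (0.29) and Tnfaip3 (0.71), and in monocytes/macrophages Rel (0.046) and Nfkbib (0.19). With 0.05 added in naming, those of Tnfaip3 (-0.17) and Nfkbia (0.077) in neutrophils were among the changed. So were Rel (0.13) and Nfkbib (0.34) in monocytes/macrophages. Nfkbib also changed with no filter (0.028) and no replicate block (0.012), and neutrophil Nfkbiz with own markers (0.43). Without 1 sum, Nfkbia ranged from -0.070 to 0.53 and -0.57 to 0.13 in neutrophils on days 3 and 5, Nfkbiz from -0.22 to 0.069 and Tnfaip3 from -0.17 to 0.56 on day 3, and Nfkbib from -0.18 to 0.15 in monocytes/macrophages on day 5.

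The counts over all genes moved more than those of the 10 genes. Those of monocytes/macrophages from day 1 to day 5 went from 1292 to 4 with 0.05 added in naming, and those from day 1 to day 3 from 91 to 580 with DESeq2. Levels fell outside their main counting interval for 49 of 270 values with own markers (ratios 0.727 to 1.91), 13 of 280 with a 20% mitochondrial ceiling and 4 of 280 with the pathway genes left out of clustering. Depth limits the CD45+ day 5 neutrophils most, where Rela and Relb rest on 5 and 7 UMIs.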

Other observations

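In blood and heart cells, Nfkbia differed between clusters and between hashtags. Neutrophil cluster 6 (673 cells) had 460 CPM of Nfkbia and 33.6 CPM of Tnfaip3, against 212 and 6.66 CPM in cluster 0 and 213 and 9.41 CPM in cluster 5. It held 38.5% of the neutrophils of hashtag 6 and 64.3% of hashtag 7, and 1.70% to 4.29% of those of hashtags 1 to 5. C1qa, a macrophage complement gene, was at 184 and 417 CPM in the monocytes/macrophages of hashtags 6 and 7 and at 1.02 to 29.2 CPM in those of hashtags 1 to 5. Nfkbia in that class was at 363 and 319.7 CPM in the first pair and at 194 to 208 CPM in the others.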
